A study of Mus musculus with 2 samples.

Results

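The Ikaros family of zinc finger transcription factors was followed in the nascent RNA of mouse bone marrow-derived macrophages (BMDMs). The 5 members, Ikzf1 to Ikzf5, were chosen by gene name, and all transcripts that carried one of these names were taken. The family was taken up with results of these data in view, because Ikzf2 had the highest centred ratio in an earlier ranking, so every value below is a description and none was tested. Of the 5 members, 3 (Ikzf1, Ikzf2 and Ikzf5) had a transcript in either library, among 11054 genes named in the series. They accounted for 16 of 43122 transcripts in the control library and 62 of 51365 transcripts in the IL-4 library.

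The BMDMs came from wild-type (Wt) mice of 8 to 12 weeks on the C57BL/6 background, and were grown for 6 days with supernatant of L929 cells, a fibroblast line that supplies the macrophage growth factor M-CSF. Control cells received no IL-4 and the other cells received IL-4 at 20 ng/ml for 1 hr, which asks how the cytokine of alternative macrophage polarization changes transcription at once. Global Run-On sequencing (GRO-seq) labels the RNA that engaged polymerases are extending in isolated nuclei. Run-on reactions done in duplicate were pooled for each condition, so there was 1 library a condition, no replicate error, and no p-value is given.

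Ikaros proteins bind DNA through a cluster of zinc fingers and pair with each other through a second cluster at the other end of the protein. They recruit chromatin remodelling and histone deacetylase complexes, chiefly NuRD, and are best known for directing lymphocyte development. Ikzf1 encodes Ikaros itself, which is made across blood lineages, Ikzf2 encodes Helios and Ikzf4 encodes Eos, both studied in regulatory T cells, Ikzf3 encodes Aiolos, a factor of B and T cells, and Ikzf5 encodes Pegasus, a more distant relative.

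The RefSeq promoter windows (GRCm38.p6, 250 bases before to 50 bases after an annotated start) matched 2 of the 5 members, with 3 windows. They are shown because each was crossed by a called transcript. Capitals mark matches, on either strand, to TTCNNNGAA, a motif of STAT dimers, or to GGGAA, the core of Ikaros binding sites, which reads TTCCC on the other strand. TTCNNNNGAA, the wider spacing that STAT6 also binds, was searched on both strands too and had no match in these windows.
Ikzf1, first window, chr11:11685675-11685974, plus strand: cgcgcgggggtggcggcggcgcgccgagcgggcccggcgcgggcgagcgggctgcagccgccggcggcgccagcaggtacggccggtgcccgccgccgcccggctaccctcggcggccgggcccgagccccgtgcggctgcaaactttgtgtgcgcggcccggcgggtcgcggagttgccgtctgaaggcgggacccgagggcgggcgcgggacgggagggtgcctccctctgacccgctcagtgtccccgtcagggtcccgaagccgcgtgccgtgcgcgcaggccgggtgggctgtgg
Ikzf1, second window, chr11:11689927-11690226, plus strand: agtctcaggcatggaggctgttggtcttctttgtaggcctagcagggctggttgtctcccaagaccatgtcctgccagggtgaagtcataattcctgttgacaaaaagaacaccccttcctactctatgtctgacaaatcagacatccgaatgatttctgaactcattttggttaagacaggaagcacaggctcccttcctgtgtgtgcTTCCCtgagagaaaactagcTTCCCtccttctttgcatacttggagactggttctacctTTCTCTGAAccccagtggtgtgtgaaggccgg
Ikzf5, chr7:131410429-131410728, minus strand: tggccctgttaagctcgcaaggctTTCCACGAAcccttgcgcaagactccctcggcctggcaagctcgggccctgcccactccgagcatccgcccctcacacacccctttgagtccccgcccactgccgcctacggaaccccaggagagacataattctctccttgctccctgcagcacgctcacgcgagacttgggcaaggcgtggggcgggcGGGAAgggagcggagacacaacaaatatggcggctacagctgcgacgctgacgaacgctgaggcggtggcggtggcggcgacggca

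The first Ikzf1 window was 81.3% G and C and held none of these motifs. In control no called transcript touched it, and after IL-4 1 transcript on the gene strand and 1 on the opposite strand did. The second Ikzf1 window, at 49.0% G and C, held 1 match to TTCNNNGAA and 2 to GGGAA. It was crossed by no control transcript and by 1 gene-strand transcript after IL-4 (chr11:11690075-11690533, score 0.3). The Ikzf5 window, at 65.7% G and C, held 1 match to each and was crossed by 1 gene-strand transcript in each library. Among all 32851 promoter windows, 8.30% held TTCNNNGAA, 6.95% held TTCNNNNGAA and 62.7% held GGGAA, so a GGGAA match was common. A match is a description of the letters and not a measured binding site.

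The only measurement was a score for each called transcript, given to 1 decimal, whose scaling to library size is not stated. Depth was therefore unknown, and a rounding range gives the ratios that scores within 0.05 of the printed ones allow. The libraries differed as wholes. Control transcripts had a median length of 227 bp and a median score of 0.3, against 312 bp and 0.2 after IL-4, and 45.4% of control transcripts had a score of 0.2 or less, against 63.9% after IL-4. The 8 macrophage markers, among them Csf1r and Spi1, all had gene-strand transcripts, 193 in control and 192 after IL-4. By name, 6 of the 8 had a transcript in each library, Spi1 not among them, with summed highest scores of 17.4 and 16.4. The T cell (7), B cell (6) and NK cell (3) lists had 0 gene-strand transcripts in both libraries. By name alone, their summed highest scores were 0.8 and 0.9, 0.4 and 0.4, and 1.6 and 2.3. In a bulk library, fewer cells of a type and less RNA per cell cannot be told apart.

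Ikzf1 (ENSMUSG00000018654.17, chr11:11685003-11772926, plus strand, 87.9 kb) carried most of the family's signal. On its own strand, 19 transcripts were called in control and 73 after IL-4. They covered 5100 bp (5.80% of the gene) in control and 35852 bp (40.8%) after IL-4, a ratio of 7.03. Ikzf1 was thus far more continuously covered in the IL-4 library, with the gain spread over its length. Per kb of gene, the score times covered bases was 17.1 in control and 138 after IL-4, an 8.10-fold difference. Centred on the median of 7211 protein-coding genes, whose raw log2 ratio was 0.12, the log2 ratio of this gene body density was 2.90 (rounding range 2.44 to 3.36). Of those genes, 16.6% were at least 2-fold higher and 16.9% at least 2-fold lower, and 1.54% had a ratio as high as that of Ikzf1, which ranked 111.

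**Figure D1:**
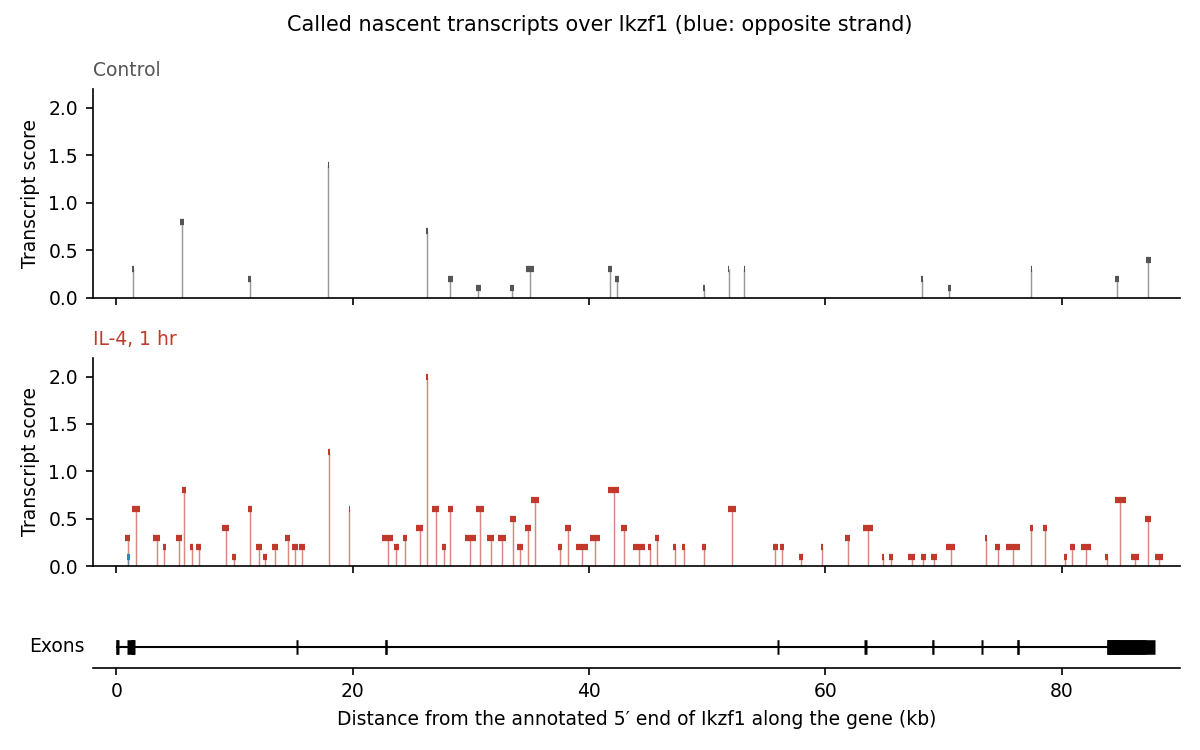
Called transcripts over Ikzf1 in the control library (top) and the IL-4 library (bottom), with the score on the vertical axis, the distance from the annotated 5′ end in kb on the horizontal axis, bars as long as the transcripts and all annotated exons as boxes below. Control has 19 separate gene-strand transcripts up to a score of 1.4, and IL-4 has 73 up to 2.0, along the whole gene.

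The larger coverage was made of more and longer transcripts. Gene-strand transcripts of Ikzf1 had a median length of 285 bp (57 to 656) in control and 451 bp (67 to 1207) after IL-4. Their median score was 0.30 in control and 0.20 after IL-4, while transcripts with a score of at least 0.5 numbered 3 in control and 15 after IL-4. The number with a score of 0.2 or less also went from 9 to 37, so both strong and weak transcripts were more numerous. The mean score over covered bases was close in the libraries, at 0.295 and 0.339. The ratio in the number of transcripts was 3.84. Among 4256 genes of at least 20 kb the median ratio was 1.00, and 18.0% had at least 2-fold more transcripts after IL-4. The gain of 54 transcripts was matched or exceeded by 27 of the 8944 genes with any gene-strand transcript, that count including Ikzf1 itself. The longer and lower-scoring transcripts of the IL-4 library as a whole moved with this result, and their part in it was not tested.

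Of the 19 control transcripts of Ikzf1, 18 overlapped an IL-4 transcript on the same strand. For these 18, the highest overlapping IL-4 score was higher in 15, equal in 1 and lower in 2, with a median ratio of 2.17 (0.500 to 6.00). The IL-4 counterpart was longer in 17, with a median length ratio of 2.34. The control transcripts chr11:11726628-11726918 and chr11:11727212-11727540 faced the same IL-4 transcript (chr11:11726657-11727559, score 0.8), which these counts use for each. Such shares over all transcripts are not given here, and the IL-4 library as a whole had longer transcripts (median 312 bp against 227 bp). In intron 3, a stretch of CT-rich low complexity sequence had a score of 0.7 in control (chr11:11711186-11711412) and 2.0 after IL-4 (chr11:11711184-11711418), the highest of any member. In the 3′ UTR, a transcript of 318 bp and score 0.2 in control (chr11:11769504-11769821) faced one of 950 bp and score 0.7 after IL-4. Near the start, a 5′ UTR transcript of 153 bp and score 0.3 (chr11:11686336-11686488) faced one of 691 bp and score 0.6. The highest control score did not follow this pattern. That 57-bp transcript in intron 2 (chr11:11702910-11702966) had a score of 1.4, and its counterpart after IL-4 had 1.2. In the other direction, 54 of the 73 IL-4 transcripts had no control counterpart, and their scores ran from 0.1 to 0.6. The share without a counterpart over the whole IL-4 library is not given here, so this count cannot be called particular to Ikzf1.

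The additional transcripts lay mostly in introns, which make up most of the length of Ikzf1. Intron 1 held 2 transcripts in control and 15 after IL-4, covering 593 and 6609 bp. Intron 3, the longest, held 10 and 34, covering 3037 and 17994 bp. Intron 7 held 1 and 6, and the 3′ UTR in exon 7 held 2 and 3. Intron numbers are those of the authors' annotation, which used models of Ikzf1 with 6 or 7 introns. The median gap between neighbouring transcripts narrowed from 3216 bp to 441 bp with IL-4, and the widest gap from 14.9 kb to 3.09 kb. Cut into 9 bins of 10 kb from the 5′ end, the last one shorter, Ikzf1 was covered between 1.64% and 13.8% in control and between 19.0% and 64.6% after IL-4. The score density was higher after IL-4 in 9 of 9 bins, from 5.25-fold in the last bin to 20.6-fold between 60 and 70 kb. The difference thus ran through to the 3′ end of the gene.

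**Figure D2:**
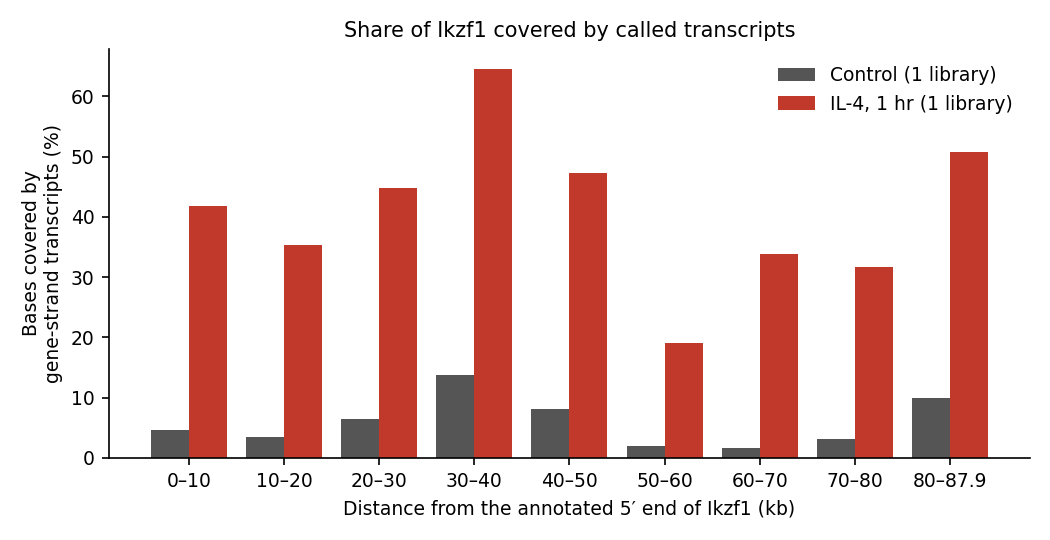
Share of each 10-kb bin of Ikzf1 covered by gene-strand transcripts (percent, vertical axis) against distance from the annotated 5′ end (kb), 1 library a condition, with no error bars because there is no replicate. All 9 IL-4 bars, from 19.0% to 64.6%, stand above the control bars, from 1.64% to 13.8%.

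The highest score of a transcript by gene name gave a smaller difference for Ikzf1 than the gene body did. It was 1.4 in control, from the 57-bp transcript in intron 2, and 2.0 after IL-4, from the one in intron 3. The ratio thus set different places in the gene against each other, both annotated as low complexity sequence. Centred on the median of 8879 genes, whose raw log2 ratio was -0.38, the log2 ratio was 0.89 (rounding range 0.81 to 0.98), short of 2-fold. With only transcripts of at least 100 bp it was 1.58, past 2-fold, and without simple repeats and low complexity it was 0.91. Of those 8879 genes, 8.06% were at least 2-fold higher and 8.62% at least 2-fold lower. The direction turned when the transcript nearest the start stood for the gene, with -1.58 as its centred log2 ratio. There the IL-4 transcript (chr11:11685874-11686191, score 0.1) lay on the opposite strand, the only one there that carried the name Ikzf1. Opposite-strand transcripts carrying another gene's name were not looked for.

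Part of the Ikzf1 signal carried another gene's name. Of the gene-strand transcripts inside Ikzf1, 5 of 19 in control and 20 of 73 after IL-4 were named after Fignl1, whose start is nearer to them. Fignl1, a gene for an ATPase of DNA repair, lies on the minus strand 14.5 kb beyond Ikzf1. By name, Fignl1 went from 6 to 22 transcripts and from a highest score of 0.4 to 0.7, which is 1.19 as a centred log2 ratio (0.91 to 1.48 allowed by rounding). On its own strand it had 0 transcripts in both libraries. The neighbour on the other side, 4930512M02Rik, also had none.

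Ikzf2 (ENSMUSG00000025997.13, chr1:69531214-69687245, minus strand, 156.0 kb) had no gene-strand transcript in control and 6 after IL-4. The control library's single transcript named Ikzf2 lay on the opposite strand, 364 bp upstream of the annotated 5′ end (chr1:69687609-69687820, 212 bp, score 0.1). After IL-4, its counterpart was 394 bp long with a score of 0.4 (chr1:69687587-69687980). Compared like for like, the upstream opposite-strand score therefore went from 0.1 to 0.4. The authors' annotation placed both in the intergenic class.

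The 6 gene-strand transcripts of Ikzf2 after IL-4 began at its 5′ end. The first (chr1:69687006-69687335, score 0.1) spanned the annotated 5′ end, and the second (chr1:69685742-69686209, score 0.2, promoter-TSS class) spanned further annotated starts at 1359 and 1424 bp into the gene. The other 4 lay in intron 3 of 7. Their scores, from the 5′ side, were 0.1 (chr1:69671694-69671998), 0.2 (chr1:69656051-69656360), 0.1 (chr1:69649877-69650213) and 1.2 (chr1:69642436-69642585). The last one, 150 bp long and in no annotated repeat, held the highest score of the gene, and the other gene-strand transcripts were at 0.2 or less. Gene-strand transcripts reached 44.8 kb into the gene, and the remaining 111 kb (71.3% of its length) held none on that strand. Whereas Ikzf1 had gene-strand transcripts in 9 of 9 bins in both libraries, Ikzf2 had them in 4 of 16 bins of 10 kb after IL-4 and in 0 of 16 in control.

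**Figure D3:**
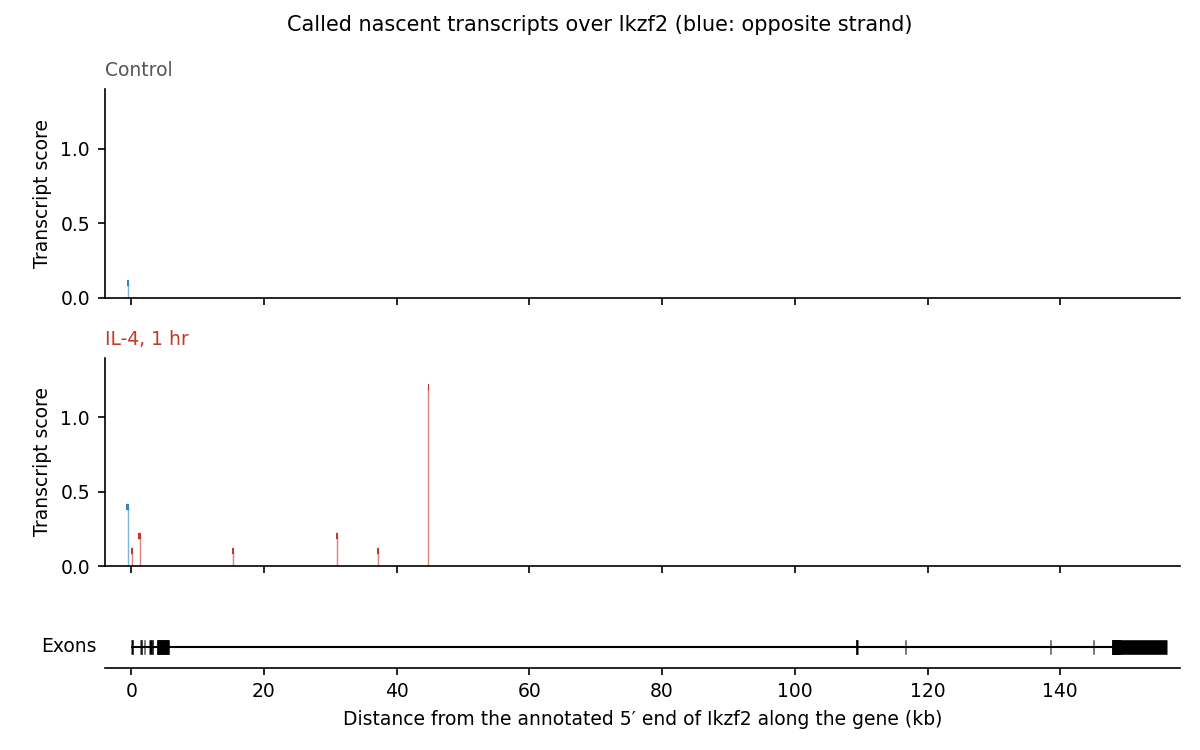
Called transcripts over Ikzf2 in the control library (top) and the IL-4 library (bottom), with the score on the vertical axis and the distance from the annotated 5′ end in kb on the horizontal axis, blue marking the strand opposite to the gene. Only gene-strand transcripts and those carrying the name Ikzf2 are drawn. Of these, control has only the upstream opposite-strand transcript, and IL-4 has 6 gene-strand transcripts within 44.8 kb, the farthest at a score of 1.2.

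By gene name, the highest score of Ikzf2 was 0.1 in control and 1.2 after IL-4, which is 3.96 as a centred log2 ratio (3.32 to 5.02 allowed by rounding). This ratio set an opposite-strand upstream transcript against an intronic one, and it was the value for which the family was taken up. With the transcript nearest the start, the centred log2 ratio was 1.00, and this too mixed strands, setting the upstream opposite-strand transcript of control (0.1) against the gene-strand promoter-TSS transcript after IL-4 (0.2). The gene body density was 2.72 after IL-4 on 1810 covered bp (1.16% of the gene), and no fold is given against a library with none. Chosen after its values were seen, the pattern of no gene-strand transcript in control and at least 6 after IL-4 was found in 19 genes, of 8944 with any gene-strand transcript. Also picked with their values known, 4 of the others with this pattern were Cish, an inhibitor of cytokine signalling, Pdcd1lg2, a ligand of the receptor PD-1, and the transcription factors Batf3 and Nfil3. The rest were Bcl2, C3, Chd7, Glrx, Gpr155, Nrg1, Plekha3, Rasgrp1, St7, Stx3, Tes, Tnip3, Uck2 and Zc3h12c. The reverse pattern was found in 12 genes. With at least 1 transcript in place of 6, the pattern was found in 1059 genes and its reverse in 674.

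Ikzf5 (ENSMUSG00000040167.16, chr7:131388652-131410521, minus strand, 21.9 kb) had 1 transcript in each library, both at its 5′ end and of the promoter-TSS class. The control transcript (chr7:131410217-131410452) was 236 bp long and the IL-4 transcript (chr7:131410291-131410449) 159 bp, and both had a score of 0.2. Their 5′ ends lay 69 and 72 bp inside the annotated gene and so nearly coincided. The centred log2 ratio by name was 0.38 (rounding range -0.36 to 1.12), equal to that of any gene with an unaltered score. The gene body density was 2.16 in control and 1.45 after IL-4, which is -0.69 as a centred log2 ratio (-1.43 to 0.05 allowed by rounding), with equal scores and a shorter transcript after IL-4. Both rounding ranges include 0. The annotation also places a long model of Fgfr2 over Ikzf5 on the same strand, and these values cannot be told apart from transcription of that model.

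Ikzf3 (ENSMUSG00000018168.8, chr11:98464902-98546031, 81.1 kb) and Ikzf4 (ENSMUSG00000002578.17, chr10:128630843-128645991, 15.1 kb) had no called transcript on the gene strand in either library. None on either strand carried their names. Opposite-strand transcripts carrying another gene's name were not looked for. Their neighbours were not all empty. Rps26, a ribosomal protein gene 4.09 kb from Ikzf4, had a highest score of 0.6 in both libraries, and Zpbp2, next to Ikzf3, had 0.3 in control and no transcript after IL-4. Since only called transcripts are listed, Ikzf3 and Ikzf4 were not detected at the unknown depth of these libraries, which is not a measurement of 0.

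In order of gene body density, Ikzf1 (17.1) stood above Ikzf5 (2.16) in control, and the other members had none. After IL-4 the order was Ikzf1 (138), Ikzf2 (2.72) and Ikzf5 (1.45). The values of Ikzf2 and Ikzf5 rest on 6 transcripts and 1 transcript, and with 1 library a condition there is no spread against which to set their order. Among 4255 genes of at least 20 kb, those nearest to Ikzf1 in density in both libraries were Plxnd1 (15.5 and 137), Csk (20.1 and 128) and Hnrnpll (17.5 and 170). Their distances from Ikzf1 in the plane of both log2 densities were 0.14, 0.26 and 0.30. For Ikzf5 they were Ube3c (2.18 and 1.47), Zfp729a (2.06 and 1.48) and Shoc2 (2.05 and 1.46).

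**Figure D4:**
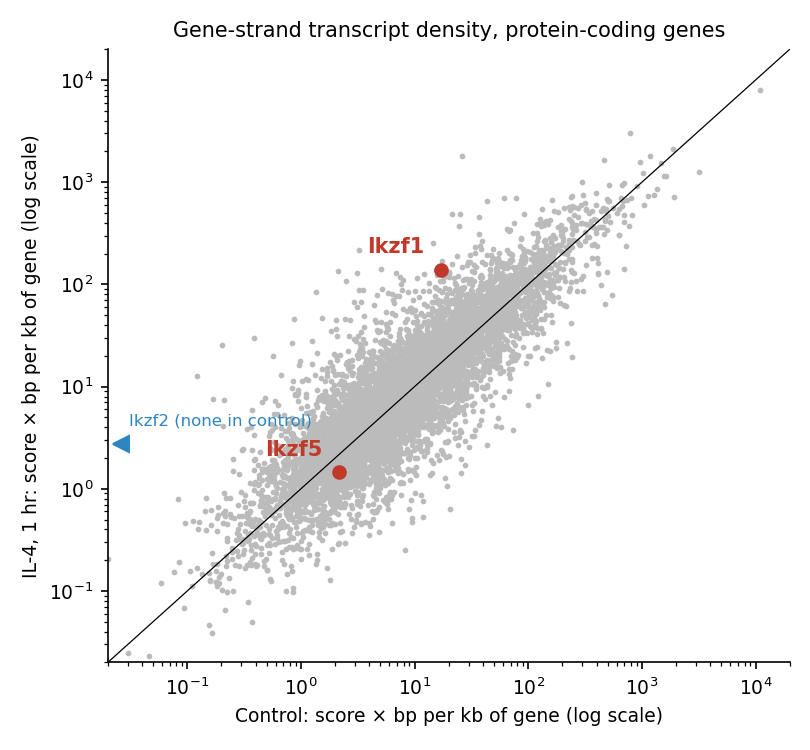
Gene body density (score times covered bp per kb of gene, log scales) in control (horizontal) and after IL-4 (vertical) for 7211 protein-coding genes in grey, with the line of equal values. Ikzf1, at 17.1 and 138, lies far above the line, Ikzf5, at 2.16 and 1.45, lies just below it, and the arrow at the left edge marks Ikzf2 at 2.72 with none in control.

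The genes for partners of Ikaros proteins showed no common direction. Of 23 such genes, 22 had a score by name in both libraries, of which 2 were at least 2-fold higher and 1 at least 2-fold lower, with a median centred log2 ratio of 0.38. In gene body density, 3 of 21 were at least 2-fold higher and 1 at least 2-fold lower, with a median of 0.02. The higher counts are near the 8.06% and 16.6% of all genes, and the lower counts, at 1 gene by each measure, do not exceed the 8.62% and 16.9%.

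Of the 13 genes of the NuRD complex, which joins a remodelling ATPase to histone deacetylases, 12 had a score in both libraries, with centred log2 ratios from -1.04 to 0.70. The lowest were Chd4, the ATPase (0.8 in control and 0.3 after IL-4, -1.04), and Hdac1, a deacetylase (1.8 and 0.8, -0.79). For Chd4 the gene body gave no such difference, with densities of 30.6 and 32.5 and -0.03 as the centred log2 ratio. The highest were Mbd3, a scaffold subunit (0.4 and 0.5, 0.70), and Chd3, the alternative ATPase (0.6 and 0.7, 0.60). Hdac2 had no transcript in control and 1 of score 0.3 after IL-4. Chosen after its values were seen, Mta2, a further scaffold subunit, had the same highest score of 0.6 in both libraries but a gene body density of 15.1 in control and 93.6 after IL-4, which is 2.51 as a centred log2 ratio. Like Ikzf1, Mta2 had an unequal result by highest score and by gene body. By gene body, 1 NuRD gene was at least 2-fold higher and 1 at least 2-fold lower. The lower one was Mta3, with densities of 2.86 in control and 1.20 after IL-4 (centred log2 ratio -1.37).

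Among the 5 other corepressors and remodellers, the related corepressors Ctbp1 (0.1 and 0.2, centred log2 ratio 1.38, rounding range 0.38 to 2.70) and Ctbp2 (0.3 and 0.5, 1.12, rounding range 0.74 to 1.52) were the highest. In gene body density, Ctbp1 went from 1.30 to 5.20 (centred log2 ratio 1.88), whereas Ctbp2, at 3.00 and 4.09, fell short of 2-fold (0.32). Smarca4, the ATPase of the BAF remodeller, was the lowest (0.5 and 0.3, -0.36), followed by Sin3a and Sin3b, scaffolds of a deacetylase complex, which tied at 0.38. The cereblon ubiquitin ligase, through which thalidomide analogs degrade Ikaros and Aiolos, had 5 genes, and none of them was 2-fold apart by name. Its adaptor Ddb1 (0.2 and 0.3, 0.96) and its scaffold Cul4a (0.5 and 0.6, 0.64) were the highest, and its substrate receptor Crbn (0.6 and 0.4, -0.21) and its RING subunit Rbx1 (0.7 and 0.6, 0.16) the lowest. By gene body, 1 of the 4 with a value in both libraries was at least 2-fold higher. This was Cul4a, with densities of 7.72 and 18.8 (1.16), while Ddb1, at 2.63 and 5.65 (0.99), came just short. Cul4b, the alternative scaffold, had 1 gene-strand transcript in control and none after IL-4.

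**Figure D5:**
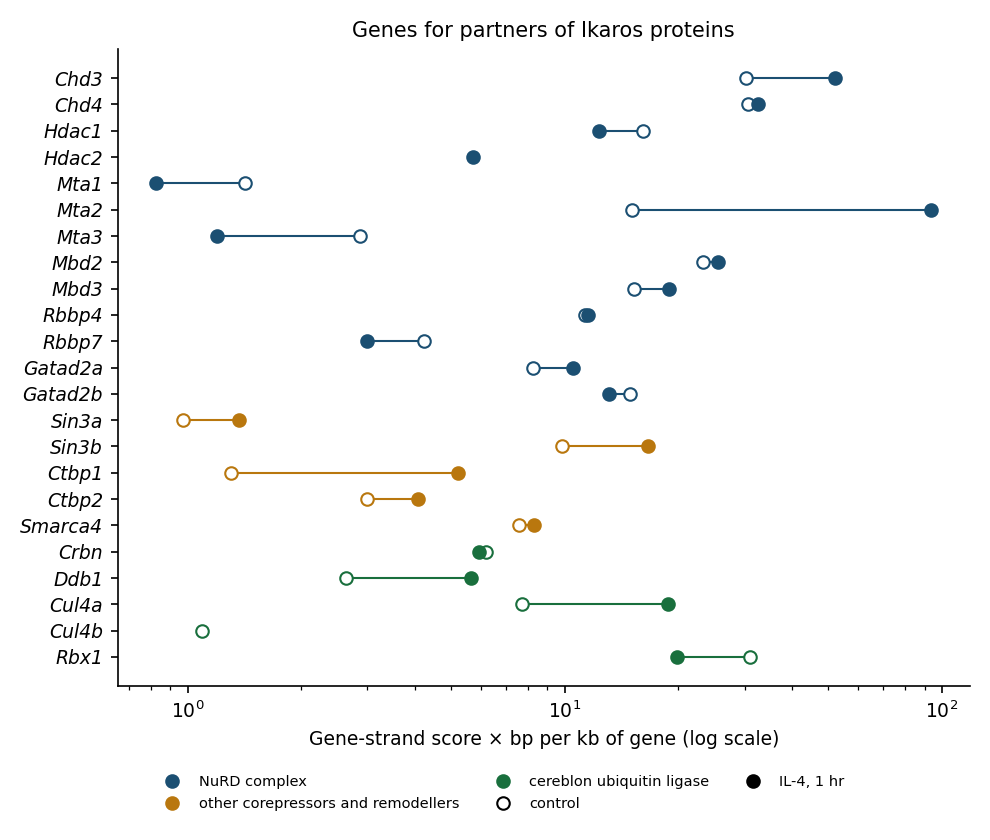
Gene body density (score times covered bp per kb of gene, log scale) of 23 partner genes in control (open circles) and after IL-4 (filled circles), 1 library each, coloured by list. Mta2, from 15.1 to 93.6, shows the widest distance, and Hdac2 and Cul4b have a value in 1 library only.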

How the data were processed

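Nascent RNA was measured by GRO-seq in 1 control and 1 IL-4 library, grouped by the treatment label. Per the submitters' processing notes, the tools were BWA 0.7.10, SAMtools 0.1.19 and HOMER 4.2 with build mm10. The authors aligned reads with default settings, removed artifact regions, called transcripts in each library separately and annotated them. The deposited score of each transcript, rounded to 1 decimal, was used as given. Depth and mapped reads were not given in the sources used here, so no interval that needs them was computed.

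A gene's value was the highest score among transcripts carrying its name, as log2 of IL-4 over control, centred on the median gene. Gene body density summed score times bp of gene-strand transcripts clipped to the protein-coding gene of GENCODE M21 (GRCm38, which is mm10), per kb of gene, and its ratio was centred likewise. A 2-fold ratio was counted as apart. Counterparts overlapped by at least 1 bp on the same strand. The members and lists were chosen with earlier results of these data known. Named genes were the members, their neighbours, the 2 highest and 2 lowest of each partner list, partners with no value in 1 library, and the 3 genes of at least 20 kb nearest in density. Csf1r and Spi1 are from the marker list. Mta2, Mta3 and the genes sharing the pattern of Ikzf2 were named after their values were seen. Alternatives covered the gene value, centring, score and length minimums, simple repeats and overlap. The calculation was tested on simulated data. Protein sequences were not used here. Scripts ran in Python 3.11.15 with pandas 2.3.3, numpy 2.4.6 and matplotlib 3.10.9.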

Additional observations from a re-analysis of the deposited data

Results flagged for a closer look

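Beyond the annotated 3′ end of Ikzf1, outside the comparisons above, 2 transcripts on the gene strand began within 10 kb after IL-4, with a highest score of 0.3 and 1538 covered bp. In control there was 1, with a score of 0.2 and 235 covered bp. The score times length summed to 331 and 47.0. This was taken up as signal in data that the gene body values leave out, above the level in the control library.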

How the results depend on the processing

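With 1 library a condition, these values carry no replicate error. Of 54 recomputed values, 36 moved by less than the rounding range or, for counts, by less than 1.5 times, and 18 moved by more. No main value that was 2-fold apart changed sign, but Ikzf1 and Ikzf5 by name, both short of 2-fold, did under 1 setting each. By name, Ikzf1 (0.89) became 2.22 with summed scores, -1.58 with the transcript nearest the TSS, 2.90 with score times length, 0.51 without centring and 1.58 with transcripts of at least 100 bp. Ikzf2 (3.96) became 1.00 with the nearest transcript, and Ikzf5 (0.38) became -0.69 with score times length. Genes at least 2-fold higher (716) numbered 1208 with summed scores, 1198 with score times length and 336 at a score of at least 0.3. Genes at least 2-fold lower (765) numbered 1219, 1218 and 386 under the same settings, 2460 with the nearest transcript and 2161 without centring. The gene body ratio of Ikzf1 (2.90) became 1.94 from numbers of transcripts and 2.32 from bases covered. Of its IL-4 transcripts, 7 rather than 19 had a counterpart when at least 50% had to overlap. The cause of these shifts was not tested. Ikzf2 gave no value on the gene strand or at a score of at least 0.2 or 0.3, nor Ikzf5 at 0.3, since a library then had no transcript. Unknown depth limits every statement on missing transcripts. No paired analysis was possible because each condition had 1 library.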
